A study of Arabidopsis thaliana with 9 samples.

Results

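Seedlings of Arabidopsis thaliana carrying the ssrp1-2 allele were compared with wild-type Col-0 seedlings, using 6 of the 9 arrays of the series, 3 of each genotype. The other 3 arrays, from spt16-1 seedlings, served to estimate the spread and are given beside individual genes. All 3 genotypes were in the Col-0 ecotype, and every array carried RNA from a pool of about 100 mg of aerial parts of several plants that were 10 days old and had grown on plates with 0.5 strength MS medium. No treatment was applied. Whether these pools were grown on different plates or sown at different times is not stated in the labels, and the p-values reflect only how far the pools differed. Of 28501 probe sets, the 16722 annotated with exactly 1 gene are described here, by function and gene family. Of these, 1826 (10.9%) carried a gene symbol and 14896 only a locus number. A locus number is given without a role below unless a synonym placed the gene in a list. Gene lists were matched by symbol or synonym, so each family count covers the listed probe sets only. Other members of a family can be among the genes known by locus number.

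SSRP1 is the smaller partner of SPT16 in FACT, a histone chaperone that removes and restores histones as RNA polymerase II passes through a gene. In plants FACT is known from actively transcribed genes, and reduced levels of either subunit are known to disturb vegetative and reproductive development and flowering time. Neither SSRP1 nor SPT16 had a probe set with a single named gene, and their levels were not analysed here, which leaves the genotypes without a check against the mutated gene.

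Values are log2 expression, on which a difference of 1 is a 2-fold change. Array medians lay between 4.95 and 4.98, and ssrp1-2 arrays correlated with wild-type arrays at r = 0.989 to 0.991 across probe sets, against 0.992 to 0.994 within a genotype. The 8 measured nuclear photosynthesis markers of aerial tissue had wild-type means from 3.61 to 12.3 and ssrp1-2 means from 3.74 to 12.4, with adjusted p-values from 0.191 to 0.917. Of the markers for root, EXPA7 had a wild-type mean of 3.44 and PYK10 of 11.2 (log2 fold change -0.38, adjusted p = 0.199). TRY for trichomes, MUTE and SPCH for the stomatal lineage and CLV3 for the shoot meristem did not pass either (adjusted p = 0.334, 0.586, 0.461 and 0.833). The only measured marker that passed was SAG29 for senescing leaves, which was lower in ssrp1-2 (-0.77, adjusted p = 0.0306). It lost that call when any of 5 single arrays was omitted. In such bulk tissue, fewer cells of a type and less RNA per cell cannot be told apart.

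Increases outnumbered decreases in ssrp1-2. Among the probe sets with 1 gene, 348 passed the test (limma, adjusted p under 0.05), which is 2.08% of them; 245 (1.47%) were higher and 103 (0.616%) lower than in wild type. Over all 28501 probe sets 735 (2.58%) passed, 496 (1.74%) higher and 239 (0.839%) lower. The increases had a median log2 fold change of 0.65 and a range of 0.30 to 2.39, and the decreases a median of -0.59 and a range of -0.31 to -2.96. At least 2-fold changes were found for 47 higher and 18 lower genes. All 348 had ssrp1-2 arrays entirely above or below the wild-type arrays, a separation that 17.5% of all probe sets showed. The median over all 16722 was 0.

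The number of calls was lower whichever array was left out. It fell to 230, 206 and 187 without wild-type replicates 1, 2 and 3, and to 227, 221 and 205 without ssrp1-2 replicates 1, 2 and 3. Of the 348 genes, 140 passed without each of the 6 arrays in turn, 102 of them higher and 38 lower in ssrp1-2. Any omission leaves fewer arrays for the test, so a call lost here or below does not single out the array left out. With wild type and ssrp1-2 fitted alone 185 passed, and with a variance that follows intensity 566 did.

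**Figure D1:**
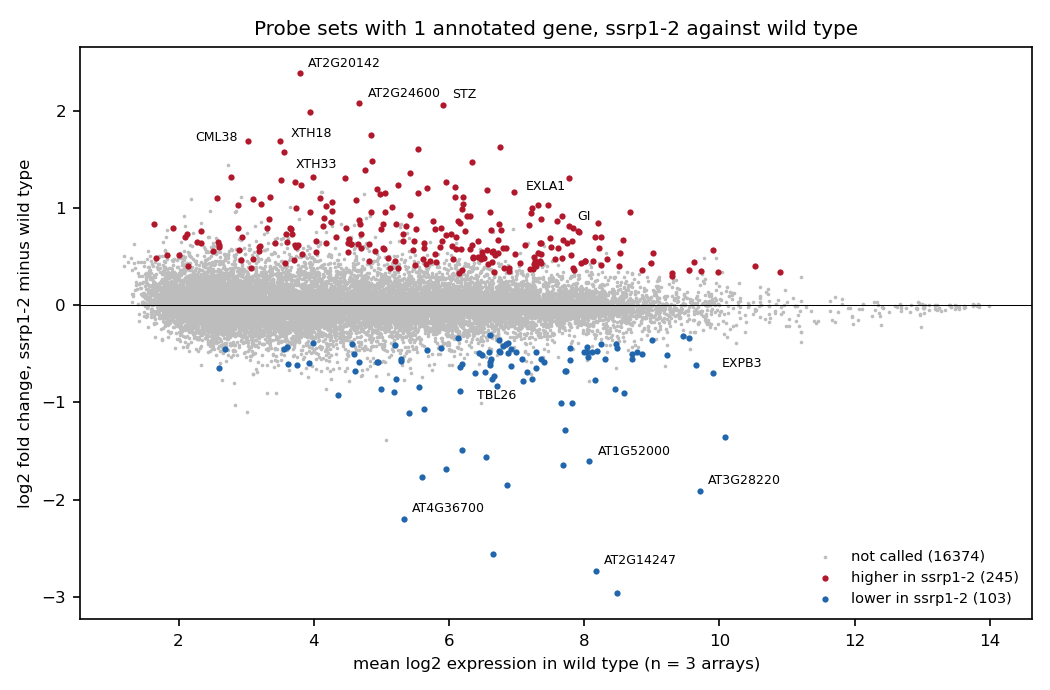
Log2 fold change (ssrp1-2 minus wild type) against the mean log2 expression in wild type for the 16722 probe sets with 1 gene; red and blue points passed the test and grey ones did not. The 245 increases reach 2.39 and the 103 decreases -2.96, and several of the labelled genes, such as STZ, XTH18 and EXPB3, are described in the text.

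Cell-wall genes moved in both directions. Xyloglucan endotransglucosylase/hydrolases (XTHs) cut and rejoin the xyloglucan that ties cellulose fibrils together, and expansins loosen the wall without hydrolysing it. Of 9 XTH probe sets 2 rose, and of 25 expansin probe sets 1 rose and 3 fell. The median log2 fold changes of the lists were 0.13 and -0.17. Over all probe sets with 1 gene 1.47% were higher and 0.616% lower, which are the shares to set beside the count of each list below.

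XTH18 read 3.18, 3.71 and 3.61 in wild type and 4.75, 5.57 and 5.24 in ssrp1-2. Its lowest ssrp1-2 array was above all wild-type arrays, and the gene rose by 1.69 on the log2 scale (3.22-fold, adjusted p = 0.00739; 0.0516 in a test without moderation). XTH33, a second member of the family, was at 4.65, 4.27 and 4.49 in wild type and at 5.89, 5.77 and 5.65 in ssrp1-2, a rise of 1.30 (2.47-fold, adjusted p = 0.000614). EXLA1, which encodes an expansin-like protein, read 6.92, 7.05 and 6.91 against 8.10, 8.04 and 8.23, a rise of 1.17 (adjusted p = 0.000228). In all 3 genes the ssrp1-2 and wild-type arrays did not overlap.

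The listed expansins proper that passed went the other way. EXPB3, a beta-expansin, gave 9.93, 9.92 and 9.87 in wild type and 9.24, 9.24 and 9.15 in ssrp1-2, a fall by 0.70 (adjusted p = 0.00131). EXPA15, an alpha-expansin, was at 6.18, 6.17 and 6.13 against 5.54, 5.57 and 5.45, and fell by 0.64 (adjusted p = 0.0113). The wild-type arrays of each gene lay within a narrow band, with the mutant arrays well below it. EXPB1 fell by 0.57 (adjusted p = 0.0161), but its call was lost when replicate 1 or 3 of wild type, or 1 or 2 of ssrp1-2, was omitted (up to 0.0659).

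The other wall lists held at most 1 call each. TBL26, of a family of polysaccharide O-acetyltransferases, was the only called member of 24 probe sets; it read 7.18, 6.93 and 7.16 in wild type and 6.41, 6.37 and 6.17 in ssrp1-2, and fell by 0.78 (adjusted p = 0.00915). ATPMEPCRB, a pectin methylesterase, rose from 5.22 ± 0.28 to 6.06 ± 0.02 (SD, n = 3; adjusted p = 0.0155), 1 of 9 probe sets for pectin methylesterases and polygalacturonases, and did not pass without any 1 of the ssrp1-2 arrays (up to 0.0561). The class III peroxidase PRXCA, 1 of 8 in its list, rose by 0.66 (adjusted p = 0.0388) and passed only without wild-type replicate 2 among the 6 omissions (up to 0.117). Among 19 GH9 endoglucanases, GH9C2 came nearest with a log2 fold change of -0.45 (adjusted p = 0.0502), and it passed without ssrp1-2 replicate 1 (0.0444). Among 9 cellulose synthase-like genes, CSLC04 came nearest (0.34, adjusted p = 0.0918).

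**Figure D2:**
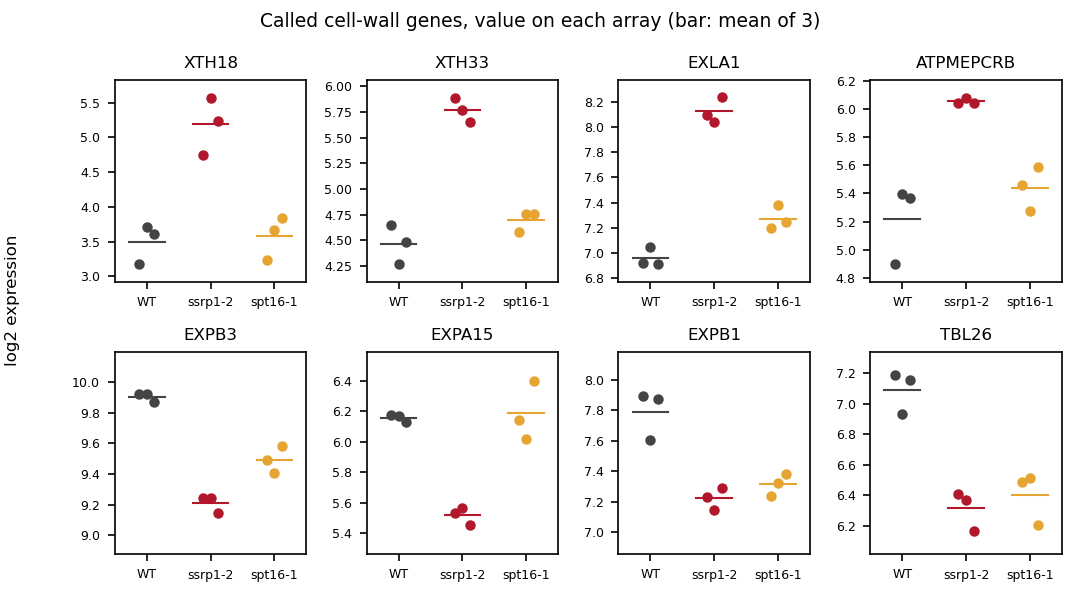
Log2 expression of 8 called cell-wall genes on each array of wild type (WT), ssrp1-2 and spt16-1; points are arrays and bars are means of 3 arrays. XTH18, XTH33, EXLA1 and ATPMEPCRB are higher and EXPB3, EXPA15, EXPB1 and TBL26 lower in ssrp1-2 than in wild type, and the vertical range differs between panels.

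A zinc-finger factor gene and a calcium sensor gene were among the largest increases. STZ encodes a C2H2 zinc-finger repressor known from responses to salt, cold and drought. It read 5.74, 6.02 and 5.998 in wild type and 7.88, 8.01 and 8.05 in ssrp1-2, a rise of 2.06 (4.17-fold, adjusted p = 0.000104), and was the only called member among 11 C2H2 probe sets. CML38, a calmodulin-like calcium sensor, read 3.33, 2.95 and 2.80 against 4.96, 4.50 and 4.69, a difference of 1.69 (adjusted p = 0.00939). The wild-type mean of CML38, 3.03, lay below 3.13, the level under which the lowest 25% of all probe sets fall, so its fold change is uncertain; it missed the threshold in a test without moderation (adjusted p = 0.0602). It was 1 of 7 calmodulin-like probe sets, of which 6 had a wild-type mean below that level.

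Of the listed U-box genes 1 rose, and of the listed WRKY and receptor-kinase genes 2 each. Over all probe sets with 1 gene 1.47% were higher. PUB23, a U-box ubiquitin ligase known to dampen immune responses, read 6.44, 5.98 and 6.21 in wild type and 7.12, 7.50 and 7.12 in ssrp1-2, a rise of 1.04 (adjusted p = 0.00696), with the other 9 probe sets of U-box ligases not called. WRKY47 rose by 0.70, from 6.10 ± 0.16 to 6.80 ± 0.07 (adjusted p = 0.00915), and WRKY29, a factor known from the response to bacterial flagellin, by 0.58 (adjusted p = 0.0314). These were 2 of 7 WRKY probe sets, with a median of 0.20. WRKY29 lost its call when replicate 1 or 3 of wild type, or 2 or 3 of ssrp1-2, was omitted (up to 0.112). BIK1, a cytoplasmic kinase that relays signals from immune receptors, rose by 0.51 (adjusted p = 0.0171), and FER, the receptor kinase FERONIA that binds RALF peptides, by 0.36 (adjusted p = 0.0256). They were the 2 called members of 21 receptor-kinase probe sets, whose median was 0.04. Each lost its call in 5 of the 6 omissions, all except that of wild-type replicate 1 for BIK1 (up to 0.0693) and wild-type replicate 2 for FER (up to 0.0931).

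Of 44 secreted signal peptides 1 was called, beside 2.08% of all probe sets with 1 gene. CLE41 encodes the TDIF peptide that maintains vascular stem cells. It read 6.98, 6.99 and 7.003 in wild type and 6.50, 6.56 and 6.46 in ssrp1-2, a fall by 0.48 (adjusted p = 0.00615). Of 88 defensin-like and SCR-like peptides, 76 had a wild-type mean below 3.13; LCR69 came nearest to the threshold (0.43, adjusted p = 0.0512).

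The trihelix, AP2/ERF, B3 and bHLH lists each had 1 or 2 called members, beside 2.08% of all probe sets with 1 gene. GT2, a trihelix factor, rose from 7.26 ± 0.10 to 7.75 ± 0.03 (adjusted p = 0.00860) on 1 of its probe sets; the other had a log2 fold change of 0.31 (adjusted p = 0.809). ABR1, an AP2/ERF repressor of abscisic acid responses, was higher by 0.70 (adjusted p = 0.0419) from a wild-type mean of 2.93, and passed only without ssrp1-2 replicate 3 among the omissions (up to 0.136). It was 1 of 14 listed AP2/ERF probe sets. NGA2, a B3 factor of the NGATHA group that shapes leaves and styles, fell by 0.51 (adjusted p = 0.0200), 1 of 10 B3 probe sets, and passed only without ssrp1-2 replicate 2 among the omissions (up to 0.0784). Of 24 bHLH probe sets the 2 that fell were the iron-response factors BHLH101 (-1.85, adjusted p = 0.00260) and PYE (-0.62, adjusted p = 0.0423), and PYE lost its call without any 1 array (up to 0.142).

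The listed genes of the transcription machinery itself showed 1 call. NRPB12 encodes a small subunit shared by nuclear RNA polymerases. It read 6.77, 6.53 and 6.48 in wild type and 6.19, 6.09 and 6.06 in ssrp1-2, and fell by 0.48 (adjusted p = 0.0361), the only call among 17 polymerase subunits; the call was lost without any 1 array (up to 0.117). In the lists nearest to FACT in function no member passed. The closest were TEX1 among 9 probe sets for transcript elongation and mRNA export (0.14, adjusted p = 0.325), AT2G22370 among 12 Mediator probe sets (0.23, adjusted p = 0.381), HTB2 among 8 histones (-0.20, adjusted p = 0.192) and CHR40 among 22 chromatin remodellers and modifiers (-0.40, adjusted p = 0.156). CHR40 passed without ssrp1-2 replicate 1 (0.0217).

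Of the central carbon list 3 genes rose, beside 1.47% of all probe sets with 1 gene. PDC2 encodes pyruvate decarboxylase, the first enzyme of ethanol fermentation. It read 4.80, 4.80 and 4.93 in wild type and 5.83, 5.53 and 6.04 in ssrp1-2, a rise of 0.96 (adjusted p = 0.00595). FDH, the mitochondrial formate dehydrogenase, rose by 0.43 (adjusted p = 0.0138), and cICDH, the cytosolic isocitrate dehydrogenase, by 0.35 (adjusted p = 0.0331). They were the calls among 20 probe sets of central carbon dehydrogenases and decarboxylases, whose median was 0.11. FDH lost its call without wild-type replicate 1 or ssrp1-2 replicate 3 (up to 0.0539), and cICDH without any 1 array (up to 0.113).

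In the starch and SWEET lists 1 gene each fell. APL3, a large subunit of ADP-glucose pyrophosphorylase in starch synthesis, read 7.55, 7.82 and 7.84 in wild type and 7.17, 7.13 and 6.88 in ssrp1-2, a fall by 0.68 (adjusted p = 0.0131; lost without wild-type replicate 2 or 3, up to 0.0567). It was 1 of 8 starch probe sets. SAG29, a SWEET sugar exporter also used as a marker of senescing leaves, fell by 0.77 (adjusted p = 0.0306), 1 of 15 SWEET probe sets, and passed only without ssrp1-2 replicate 1 among the omissions (up to 0.106). AKINBETA1, a regulatory subunit of the energy-sensing kinase SnRK1, rose by 0.59 (adjusted p = 0.0169), 1 of 3 in its list, and passed only without wild-type replicate 1 (up to 0.0693).

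In sulphur metabolism 1 gene fell and 1 rose among 9 probe sets. MGL, methionine gamma-lyase, which breaks methionine down, read 7.04, 7.07 and 7.14 in wild type and 6.51, 6.63 and 6.45 in ssrp1-2, and fell by 0.55 (adjusted p = 0.00493). APS4, an ATP sulphurylase of the first step of sulphate assimilation, rose by 0.53 (adjusted p = 0.0226), a call lost when replicate 1 or 2 of wild type, or 2 or 3 of ssrp1-2, was omitted (up to 0.0800).

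Called genes of the protein turnover lists were higher in ssrp1-2, except for 1 subtilase. Over all probe sets with 1 gene 1.47% were higher and 0.616% lower. Of 33 probe sets for serine carboxypeptidase-like proteins, a family of hydrolases and acyltransferases, 3 rose: SCPL34 by 0.70 (adjusted p = 0.0119), scpl35 by 0.53 (adjusted p = 0.00555) and SCPL49 by 0.42 (adjusted p = 0.0299). The median of that family was -0.03. SCPL49 passed only without ssrp1-2 replicate 3 among the omissions (up to 0.0971). UBC19, a ubiquitin-conjugating enzyme, rose by 0.42 (adjusted p = 0.0308; 1 of 15), and lost its call without any 1 array (up to 0.103). Fes1B, a co-chaperone of Hsp70, rose by 0.58 (adjusted p = 0.0373; 1 of 20 chaperone probe sets), and passed only without wild-type replicate 1 (up to 0.115). ATSBT5.2, a subtilase, fell by 0.39 (adjusted p = 0.0390; 1 of 10), a call lost without any 1 array (up to 0.112).

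Among the listed transport and trafficking genes, PUP18, of the purine permease family, rose most. Its values were 4.84, 4.89 and 5.06 in wild type and 6.13, 6.21 and 6.02 in ssrp1-2, a rise of 1.19 (2.28-fold, adjusted p = 0.00167), 1 of 4 purine permease probe sets. AT1G68570, listed by RefSeq as NPF3.1 of the nitrate and peptide transporter family, fell by 0.51 (adjusted p = 0.0176; 1 of 11 NPF probe sets) on 1 of its probe sets, while the other gave -0.30 (adjusted p = 0.678). Its call was lost when replicate 1 or 3 of wild type, or 1 or 3 of ssrp1-2, was omitted (up to 0.0693). MTP11, a manganese transporter, fell by 0.40 (adjusted p = 0.0223; 1 of 5 metal transporters), and passed only without wild-type replicate 2 (up to 0.0804). VPS60.1, an ESCRT-related protein, rose by 0.45 (adjusted p = 0.0255; 1 of 29 trafficking probe sets), and passed only without ssrp1-2 replicate 1 (up to 0.0902). TRM26, of a family linked to the microtubule-organising protein TON1, rose by 0.47 (adjusted p = 0.0162; 1 of 15), and passed only without wild-type replicate 2 (up to 0.0632).

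Of 14 probe sets for light signalling and the clock, 2 rose and 1 fell. The shares over all probe sets with 1 gene were 1.47% higher and 0.616% lower. GI, the clock protein GIGANTEA, which promotes flowering in long days, read 7.74, 7.75 and 7.82 in wild type and 8.56, 8.56 and 8.63 in ssrp1-2, a rise of 0.81 (adjusted p = 0.000487). CCL rose by 0.40 (adjusted p = 0.0284), and passed only without ssrp1-2 replicate 2 (up to 0.102). AFR, an F-box protein of far-red signalling, fell by 0.49 (adjusted p = 0.0438; lost without any 1 array, up to 0.140) on 1 probe set and not on the other (0.10, adjusted p = 0.777). PIFI, which acts in chloroplast electron flow, was the only call among 21 nuclear photosynthesis probe sets (0.36, adjusted p = 0.0315), and it was lost without any 1 array (up to 0.110). The sources used here do not give the hour of harvest.

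Among the lists of specialised metabolism, flavonoid and anthocyanin enzymes held the most calls. Of 58 UGT glycosyltransferase probe sets, UGT72E1, which glucosylates lignin precursors, rose by 0.53 (adjusted p = 0.0441; lost without any 1 array, up to 0.141), while UF3GT (-1.49, adjusted p = 0.00520) and UGT73C6 (-0.31, adjusted p = 0.0299) fell. UGT73C6 lost its call without any 1 array (up to 0.103), and its other probe set did not pass (0.06, adjusted p = 0.931). Among 11 flavonoid and anthocyanin probe sets 5 fell, DFR, CHIL and AT5MAT beside those UGTs, by up to 1.49. The shares over all probe sets with 1 gene were 1.47% higher and 0.616% lower.

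**Figure D3:**
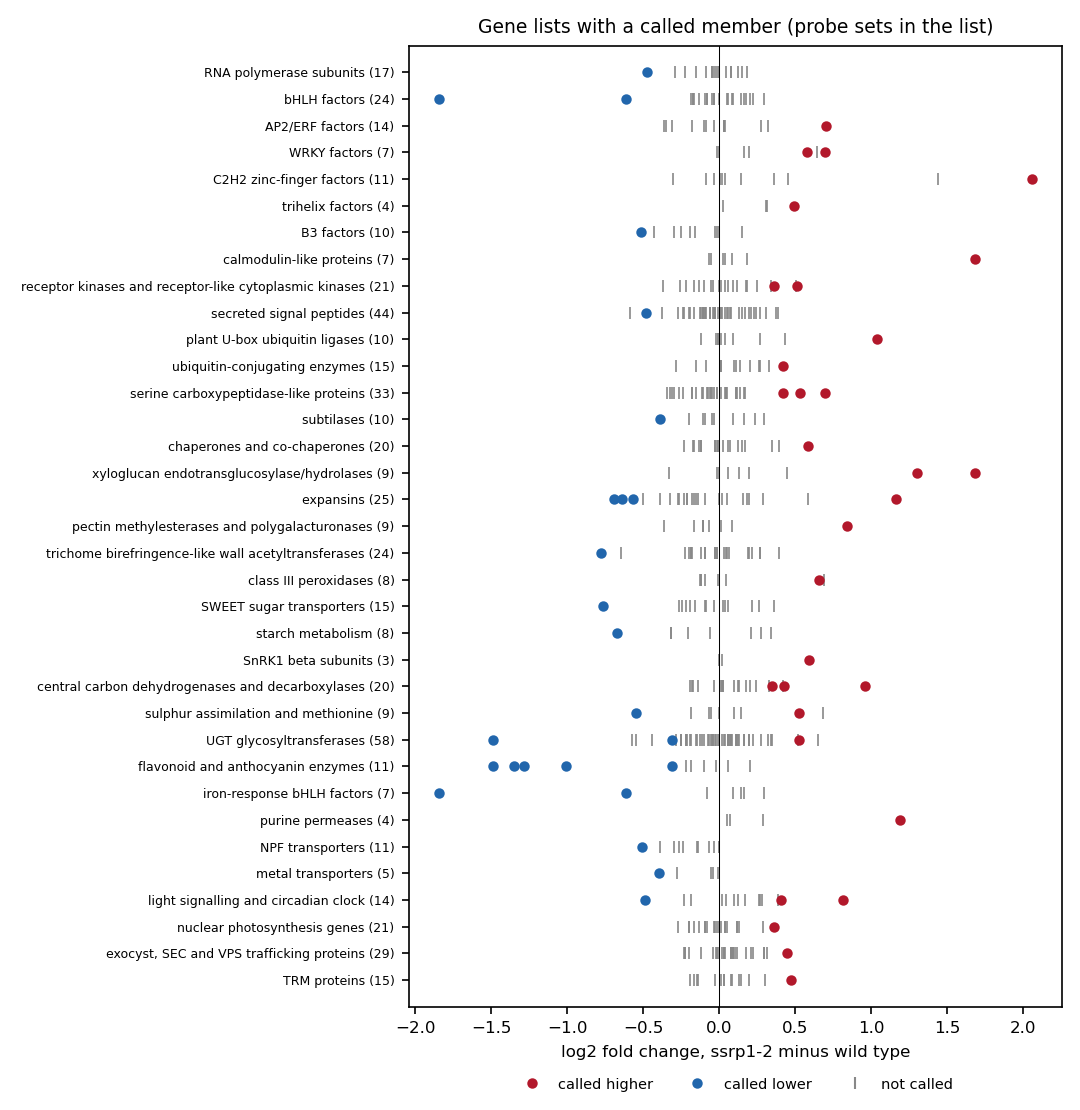
Log2 fold change (ssrp1-2 minus wild type) of every probe set in the 35 gene lists that held at least 1 call; red and blue points passed the test, grey ticks did not, and the number of probe sets stands beside each list. Most of these lists hold a single call. In some lists all probe sets lie on 1 side of 0, such as the NPF transporters (0 probe sets above 0 and 11 below) and the trihelix factors (4 above and 0 below). These cover only 10 and 3 genes, the median over all probe sets with 1 gene was 0, and such a lean was not tested.

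In all, the 62 lists held 1126 probe sets, of which 52 (4.62%) passed, 31 higher and 21 lower, against 2.08% of all probe sets with 1 gene. The lists were drawn up with earlier results of these data known, so this share is a description. It is also not set against like genes, since lists were matched by symbol or synonym. Of the 1826 probe sets with a symbol, 59 passed. In 27 lists, with 589 probe sets, limma called 0 members; 72 (12.2%) had an unadjusted p under 0.05, against 13.3% of all probe sets with 1 gene. The test without moderation called 1 of these 589, bZIP43, and the fit with an intensity trend 10. Those 10 include TET8, COR47, MSRB6, BGLU47, GH9C2, CSLC04, LCR69 and 1 probe set of nad1. All of these named genes but CSLC04 also passed when the lowest 25% of probe sets by mean signal were left out.

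The larger of those lists had medians near 0. Chloroplast-encoded genes (63 probe sets) had a median of -0.02, with 17 probe sets above 0 and 46 below. Mitochondrion-encoded genes (27 probe sets of 18 genes) had a median of -0.07, with 3 above 0 and 24 below. Nearest came psbN (-0.20, adjusted p = 0.390) and 1 of the 7 probe sets of nad1 (-0.32, adjusted p = 0.0590). MADS-box factors (67, of which 41 had a wild-type mean below 3.13) had a median of -0.01, with PHE1 nearest (0.68, adjusted p = 0.112). The CYP71 to CYP84 cytochromes P450 (27) had a median of 0.04, with CYP71B35 nearest (-0.36, adjusted p = 0.238), and bZIP factors (27) of 0.03, with bZIP43 nearest (0.26, adjusted p = 0.0808).

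The auxin, response regulator, IQ-domain and glutamate receptor-like lists held no call. In the auxin list (17) GH3.9 came nearest (0.15, adjusted p = 0.321), among response regulators (8) ARR15 (-0.56, adjusted p = 0.337), among IQ-domain proteins (17) IQD22 (-0.27, adjusted p = 0.239) and among glutamate receptor-like channels (10) GLR2.8 (-0.41, adjusted p = 0.162). For protection from stress the nearest were COR47 of 14 cold and dehydration genes (0.43, adjusted p = 0.0671), GSTU16 of 15 glutathione transferases (-0.43, adjusted p = 0.0794), MSRB6 of 13 glutaredoxins and methionine sulphoxide reductases (-0.42, adjusted p = 0.0577) and BGLU47 of 23 beta-glucosidases (-0.54, adjusted p = 0.0583). BGLU47 passed without ssrp1-2 replicate 2 (0.0256).

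In lists of general cell upkeep the genes nearest to the threshold did not pass either, though TET8 did so in the alternatives named above. These were UBP22 of 12 ubiquitin-specific proteases (0.31, adjusted p = 0.252), ATG8E of 11 autophagy genes (0.30, adjusted p = 0.245), RECQ4B of 18 DNA repair genes (0.30, adjusted p = 0.233), NET3A of 18 cytoskeletal genes (0.27, adjusted p = 0.224), CHX20 of 9 cation/H+ exchangers (-0.14, adjusted p = 0.484), PRA1.B4 of 14 PRA1 proteins (-0.33, adjusted p = 0.368) and TET8 of 12 tetraspanins (0.54, adjusted p = 0.0502).

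A further 8 called genes with a symbol lay outside the lists and were named after their values were seen. WNK7, a kinase of the WNK family (0.59), AAE18, an acyl-activating enzyme (0.54), SAG101, a partner of the immune regulator EDS1 (0.45), and AILP1 (0.34) rose. CDI (-0.56), RXW8 (-0.48), SIS (-0.44) and ZW9 (-0.34) fell. Adjusted p-values were 0.0185 for CDI to 0.0465 for ZW9. Each lost its call when single arrays were omitted: SAG101 and ZW9 without any 1 array, AILP1 in all omissions except that of wild-type replicate 1, and RXW8 and SIS in all except that of ssrp1-2 replicate 1. WNK7 lost it without replicate 1 or 2 of either genotype, AAE18 when replicate 1 or 3 of wild type, or 1 or 2 of ssrp1-2, was omitted, and CDI when replicate 2 or 3 of wild type, or 1 or 3 of ssrp1-2, was omitted.

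**Figure D4:**
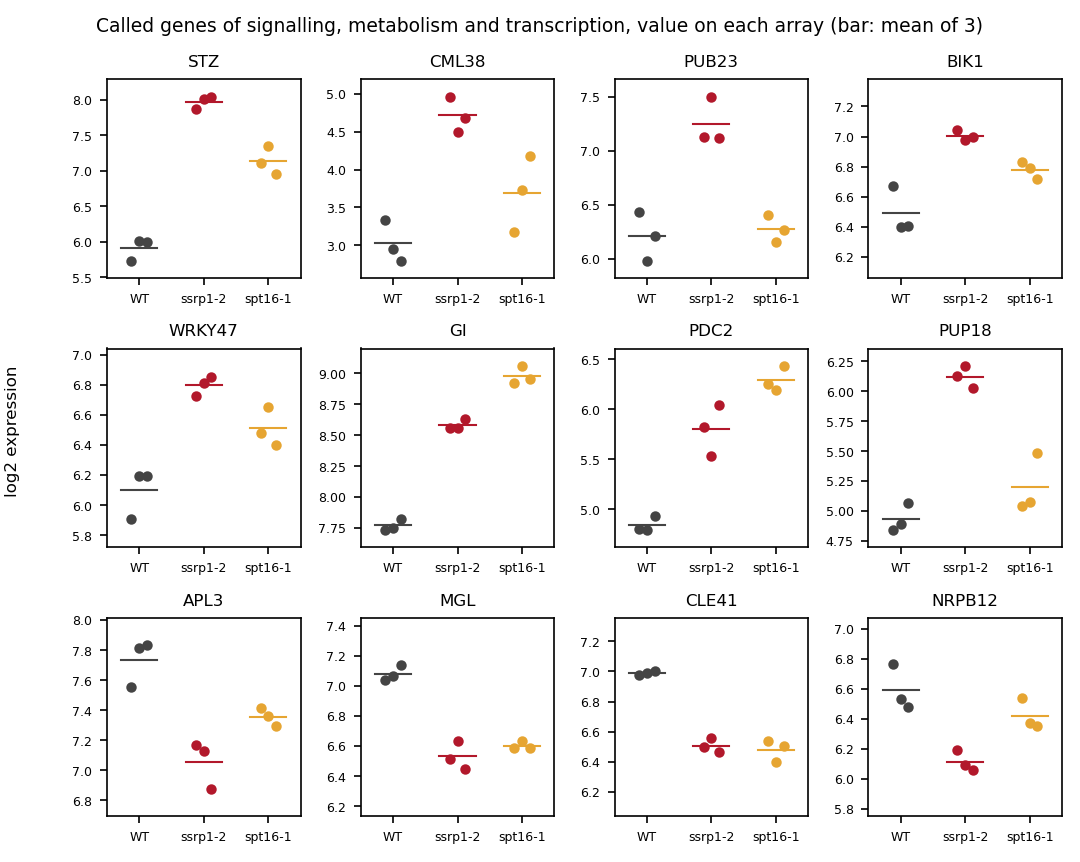
Log2 expression of 12 called genes of signalling, transcription, metabolism and transport on each array of wild type (WT), ssrp1-2 and spt16-1; points are arrays and bars are means of 3 arrays. The first 8 panels show increases in ssrp1-2, such as STZ at 7.88 to 8.05 against 5.74 to 6.02 in wild type, and the last 4 show decreases, and the vertical range differs between panels.

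Most of the largest changes belonged to genes known here by locus number only. The same holds for the background, where 14896 of the 16722 probe sets with 1 gene carried only a locus number. AT2G20142 had the largest increase; it read 3.80, 3.84 and 3.74 in wild type and 6.10, 6.29 and 6.13 in ssrp1-2, a rise of 2.39 (5.23-fold, adjusted p = 1.10e-05). AT2G24600 read 4.74, 4.82 and 4.45 against 6.76, 6.82 and 6.65, a rise of 2.07 (adjusted p = 0.000104). In both genes every mutant array stood far above every wild-type array. Rises of 1.98, 1.75, 1.63, 1.61 and 1.58 followed for AT5G39580, AT1G25400, AT1G07135, AT1G72416 and AT1G19380. Rises between 1.20 and 1.48 were found for AT1G11070, AT5G35735, AT1G15125, AT3G23170, AT1G77640, AT3G49160, AT1G56300, AT5G41750, AT1G02770, AT3G15630, AT3G59350, AT2G34930, AT3G43670 and AT2G43590. All of these kept their call in each omission of an array; AT2G43590 lost it without moderation (adjusted p = 0.0581). AT1G77640 had a wild-type mean of 2.77, below 3.13.

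Among the decreases of genes not on the lists of anthocyanin and iron genes set aside here, AT2G14247 was the largest. Those lists are not complete, so a gene described here may belong to either response. AT2G14247 read 8.05, 8.16 and 8.31 in wild type and 5.88, 5.33 and 5.13 in ssrp1-2, a fall by 2.73 (adjusted p = 0.000228). AT3G28220 was at 9.63, 9.64 and 9.86 against 7.70, 7.85 and 7.85, a fall by 1.91 (adjusted p = 4.27e-05). AT4G36700 fell by 2.19 with spread arrays, from 5.57, 5.88 and 4.56 to 3.07, 3.71 and 2.65 (adjusted p = 0.0204). That call was lost without replicate 1 or 2 of wild type or replicate 1 or 3 of ssrp1-2 (up to 0.0774). AT1G13609 (-1.77, adjusted p = 0.0331) lost its call without any 1 array (up to 0.124), AT3G24230 (-1.07) without ssrp1-2 replicate 2 or 3 (up to 0.0558) and AT1G03990 (-0.93) when replicate 2 or 3 of wild type, or 1 or 2 of ssrp1-2, was omitted (up to 0.116). Falls of 1.68 to 0.76 that held in each omission were those of AT1G12030, AT1G52000, AT5G05250, AT1G24580, AT1G14250, AT3G56360, AT1G06830, AT1G60590, AT1G13650, AT3G28270, AT1G80130 and AT3G24460; of these AT1G12030 did not pass without moderation (adjusted p = 0.0531).

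Low signal accompanied a part of the increases. Of the 245 higher genes, 26 had a wild-type mean below 3.13, and 14 of them exceeded it in ssrp1-2 while 12 stayed under it. Of the 103 lower genes, 4 were below it in ssrp1-2, and 2 of these were below it in both genotypes. In 4 bins of equal size by wild-type signal, from lowest to highest, 0.478%, 1.15%, 2.01% and 2.22% of probe sets were higher and 0.0478%, 0.167%, 0.622% and 1.63% lower. The median standard error of the fold change was 0.14 in the lowest bin and 0.08 in the highest.

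Some called genes were neighbours on the chromosome. Among 10253 pairs of adjacent genes that were both measured, 13 pairs were both called: 8 were higher together, 1 was lower together and 4 were opposite. Of the 315 measured neighbours of higher genes 16 (5.08%) were higher themselves, against 1.49% of all genes placed. Of the 138 neighbours of lower genes 2 (1.45%) were lower, against 0.622%; these 2 are AT1G47395 and AT1G47400, which were set aside as iron genes. AT5G41740 and AT5G41750 rose by 1.11 and 1.28, the first not passing without moderation (adjusted p = 0.0516). As in every called gene, the wild-type and ssrp1-2 arrays of both did not overlap. AT5G41740 read 6.47, 6.09 and 6.07 against 7.27, 7.36 and 7.33, and AT5G41750 read 3.54, 3.45 and 3.54 against 4.70, 5.05 and 4.63. The pair looked less alike in spt16-1. There AT5G41740 averaged 6.23, beside 6.21 in wild type, and AT5G41750 averaged 4.11, beside 3.51 in wild type. AT3G51540, next to FER, rose by 0.79 (adjusted p = 0.0442) and passed only without wild-type replicate 3 among the omissions (up to 0.144). AT2G24550, next to AFR, rose by 0.37 while AFR fell (adjusted p = 0.0440; lost without any 1 array, up to 0.139). No pair had identical values, but cross-hybridisation between related neighbours and transcription running from 1 gene into the next were not tested.

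**Figure D5:**
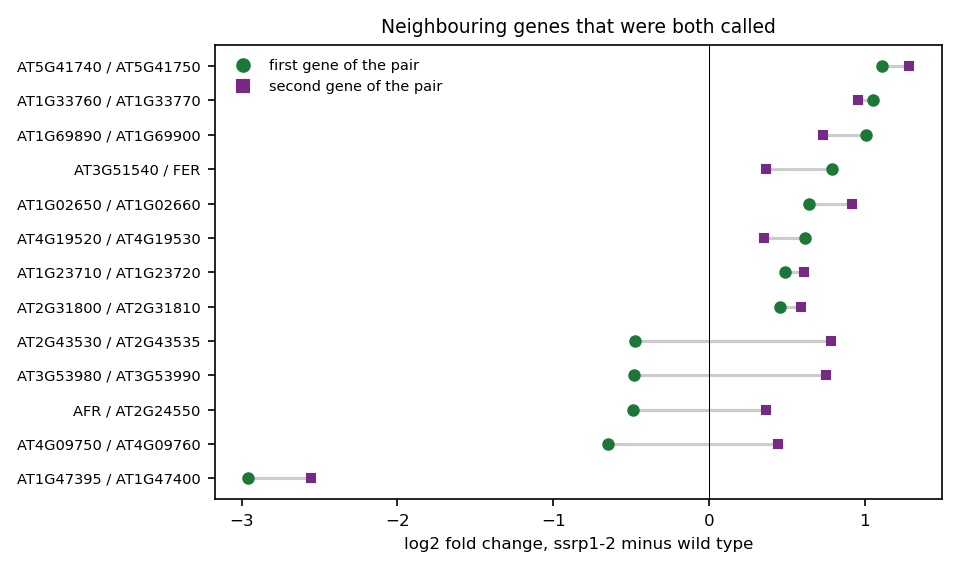
Log2 fold change (ssrp1-2 minus wild type) of both genes in the 13 pairs of neighbouring genes that were both called; a circle is the first and a square the second gene of the pair in chromosome order. In 8 pairs both lie above 0, in 1 both lie below and in 4 they lie on opposite sides.

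The spt16-1 arrays gave a second reference for the same genes. Set directly against spt16-1, 0.835% of all probe sets differed from ssrp1-2. Of the 348 genes called against wild type 66 differed from spt16-1: 52 higher genes were above spt16-1, 6 higher genes below it and 8 lower genes below it. Both comparisons use the same ssrp1-2 arrays, so these counts are given without a reading. Of the 20 such genes among those named here, 7 kept the direct difference without each of the 6 arrays in turn, an omission chosen after seeing the data.

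Cell-wall genes were among the named ones. XTH33 averaged 4.70 ± 0.10 in spt16-1 (SD, n = 3), 1.08 below ssrp1-2 (adjusted p = 0.00444), and EXLA1 averaged 7.27 ± 0.10, 0.85 below it (adjusted p = 0.00366). Both differences held in each omission, as did those of AT2G20142 (1.11), AT2G24600 (1.23), AT1G72416 (1.06), AT1G25400 (0.93) and AT2G34930 (0.83). XTH18 (3.58 ± 0.31 in spt16-1, difference 1.60, adjusted p = 0.0227) lost the call in all omissions except that of ssrp1-2 replicate 1, and EXPA15 (6.19 ± 0.19, difference -0.67, adjusted p = 0.0218) in 4, those of any ssrp1-2 array and of spt16-1 replicate 1. STZ (7.14 ± 0.20, difference 0.84, adjusted p = 0.0178) and PUP18 (5.20 ± 0.25, difference 0.92, adjusted p = 0.0168) also lost it in 4 each: STZ without ssrp1-2 replicate 2 or 3 or spt16-1 replicate 1 or 3, and PUP18 without replicate 1 or 2 of either mutant. PUB23 (6.28 ± 0.13, difference 0.97, adjusted p = 0.0232) and GI, which was higher still in spt16-1 (8.98 ± 0.07, difference -0.40, adjusted p = 0.0385), lost it without any 1 array. CLE41 averaged 6.48 ± 0.07, MGL 6.60 ± 0.03 and TBL26 6.40 ± 0.17 in spt16-1, and their direct differences did not pass.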

How the data were processed

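The values were deposited by the authors as log2 expression, 1 per probe set and array, and the submitters' processing notes name RMA, without a version, and Affymetrix Expression Console 1.3. RMA gives the arrays a common distribution, so differences in total RNA per cell would not appear. Biotin-labelled cDNA was made from 200 ng of total RNA, per the labels' protocols. GEO's platform annotation named 1 gene for 16722 probe sets (16550 distinct genes), several for 759 and none for 11020; 16574 of the first matched RefSeq (TAIR10.1) and 148 did not. RefSeq served for names, chromosomes and neighbours, which were protein-coding genes ordered by start position. Promoter motifs and other sequences were not analysed here.

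A single limma 3.58.1 model of the 9 arrays (R 4.3.3; lmFit, then eBayes; two-sided) had 6 residual and 2.76 prior degrees of freedom. The Benjamini-Hochberg adjustment ran over all 28501 probe sets, with 0.05 as the threshold for a call. Errors after ± are SDs over 3 arrays. The number of arrays limits the precision. With 3 arrays against 3 an exact permutation p is at least 0.1, so that test was left out. Tables were made with Python 3.11.15 and pandas 2.3.3.

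Lists were matched by symbol or synonym. The members and lists were chosen with earlier results of these data known. The text names the 25 increases and 20 decreases of largest size among called genes whose arrays do not overlap (listed anthocyanin and iron genes aside). From every list it takes the called members, at most 6 by p, or else the member closest to the threshold, and it adds called neighbours of named genes. Where a gene has several probe sets, each was tested. Alternatives were other fits, scalings and filters, a replicate block, single arrays left out and a 2-fold minimum.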

Additional observations from a re-analysis of the deposited data

How the results depend on the processing

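Against 348 calls among probe sets with 1 gene (245 higher, 103 lower; 735 over all probe sets), fitting the 2 genotypes alone gave 185 (136 and 49; 399), an intensity trend 566 (375 and 191; 1190), no moderation 221 (155 and 66; 482) and a 2-fold minimum 65 (47 and 18). Leaving out 1 array gave 187 to 230 calls, 135 to 158 higher and 52 to 72 lower, and 405 to 501 over all probe sets. Robust moderation, array weights, median centring, quantile normalization, a filter on the lowest 25% and adjustment over probe sets with 1 gene gave 305 to 452. Whether replicate numbers pair the arrays was not settled. The deviations of same-numbered wild-type and ssrp1-2 arrays correlated at 0.07, 0.02 and 0.07, and those of differently numbered ones at -0.11 to 0.05. Not every array correlated best with its own number. A replicate block gave 236 calls (168 and 68; 503). None of the 348 reversed its direction in 16 alternatives, but this is no check of the direction. The arrays of all 348 did not overlap, so leaving out 1 array could not reverse any of them. Alternatives that change only the variance or the adjustment leave the fold change as it is. Of the 102 called genes named in the text, 54 kept their call in all 16. The causes of these differences between settings were not tested. No detection calls were used here, so whether a dim probe set stood above background was not assessed.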

Other observations

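Calls also fell on probe sets without a gene name in the annotation used here. Of these 11020 probe sets 370 (3.36%) passed, 242 higher and 128 lower in ssrp1-2, against 2.08% of those with 1 gene. Of the 759 probe sets with several genes 17 (2.24%) passed. By nuclear chromosome, from 1 to 5, 1.66%, 1.56%, 1.30%, 1.34% and 1.49% of the probe sets with 1 gene were higher and 0.770%, 0.624%, 0.532%, 0.770% and 0.420% lower.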
